A study of Mus musculus with 14 samples.

Results

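Glutamate, GABA and glycine receptor genes were examined in the fetal mouse brain at 2 ages. The genes were chosen by their symbols, which had to name a subunit of an AMPA, NMDA, kainate or delta receptor, a metabotropic glutamate (mGlu) receptor, a GABA-A or GABA-B receptor (the Gabrr genes included), or a glycine receptor. The symbols matched 52 of the 41934 genes listed. They comprise 26 glutamate receptor genes, 21 GABA receptor genes and 5 glycine receptor genes. A gene counted as measured when its mean normalized count, the read count divided by a size factor and averaged over libraries, was at least 10. By this rule 45 of the 52 genes were measured at E13.5, 46 at E18.5 and 44 at both ages.

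RNA was sequenced from whole brains of 14 individual male fetuses on a C57BL/6J background. The fetuses were Dio3+/+ and Dio3-/- littermates from matings of Dio3+/- mice, and no group was given hormone or another agent. There were 4 Dio3+/+ and 2 Dio3-/- fetuses at E13.5, and 3 Dio3+/+ and 5 Dio3-/- fetuses at E18.5. Dio3 encodes the type 3 deiodinase, which clears thyroid hormone, and the Dio3-/- mice carry point mutations in every cell that inactivate the enzyme while its mRNA is still made. The Dio3 mean normalized count, 99.02 at E13.5 and 129 at E18.5, is therefore no check of the genotypes. The question of the study was whether the fetal brain responds to thyroid hormone. Each table gives 1 mean count per gene over both genotypes and, beside it, its authors' own comparison of the genotypes, which is not used here. No gene has a value for a single fetus, so no spread, test or genotype difference is given. The depth of each single library is unknown, and the study states a range of aligned reads for its first sequencing batch only.

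Glutamate is the main excitatory transmitter of the brain. AMPA, NMDA and kainate receptors are ion channels built from subunits of their own class, and mGlu receptors signal through G proteins. GABA opens the GABA-A chloride channels, assembled mostly from alpha, beta and gamma subunits, and acts on the GABA-B receptor, a G protein-coupled pair of Gabbr1 and Gabbr2. Glycine receptors are chloride channels of alpha and beta subunits. In young neurons intracellular chloride is high and GABA and glycine can depolarise the cell, and subunit use shifts as synapses mature.

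The levels given below are mean normalized counts per kilobase of exon, so that genes of different length can be set side by side. The age ratio is the log2 ratio of the mean count at E18.5 to that at E13.5, less the median of this ratio over the 17794 genes measured at both ages. A ratio of 1 thus means a doubling relative to the median gene. Levels are as the tables give them, without this scaling, so a gene such as Grik5 can have a lower level at E18.5 and yet a ratio above 0. The tables of the ages were normalized separately and the share of Dio3-/- fetuses differed between them, and the part of the genotype mix in any ratio was not tested. In whole brain, more cells of a type and more RNA per cell cannot be told apart.

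The receptor genes as a group had larger age ratios than the median gene. The median age ratio of the 44 genes was 1.71, with quartiles of 1.04 and 2.39, against quartiles of -0.36 and 0.47 over all genes measured at both ages. Of the 44 genes 43 had a ratio above 0. The ratio was above 1 in 34 of them, 77.3%, against 12.1% of all genes, and above 2 in 17 of them, 38.6%, against 3.12% of all genes. The receptor genes took 0.213% of the summed mean counts at E13.5 and 0.613% at E18.5. The exception below 0 was Grin3b, whose exons overlap those of Tmem259 on the other strand. The reads were counted without strand in the default union mode of HTSeq. In that mode a read on exons of several genes is counted for none of them. Of the 52 genes 21 have exons that overlap an exon of another gene, and the exon lengths used here still include the shared bases. Among the 25 measured genes with no such overlap the median was 1.75 and all 25 lay above 0.

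**Figure D1:**
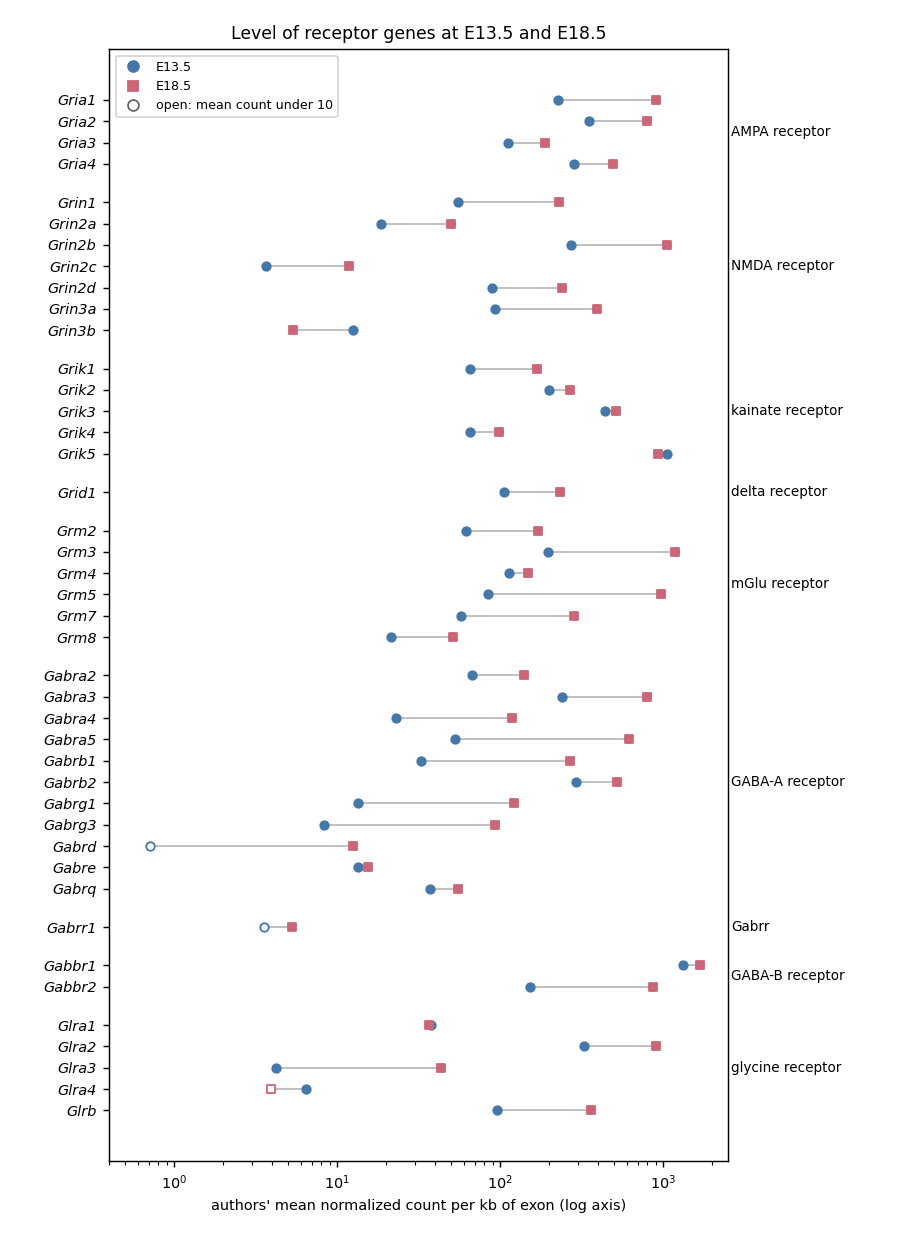
Mean normalized count per kb of exon (log axis) of receptor genes with a mean count of at least 10 at E13.5 (circles) or E18.5 (squares), by receptor class. Each mark is the authors' mean over both genotypes with no error, and open marks are mean counts under 10. Gabbr1 stood farthest right at both ages, and Grin3b, Grik5, Glra1 and Glra4 are the genes whose square lies to the left of the circle.

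The order of the genes by level was similar at both ages, with a Spearman correlation of 0.844 over the 44 genes, which share their libraries. Gabbr1 was highest at both ages per kb of exon, at 1321 per kb at E13.5 and 1694 per kb at E18.5. With the longest coding sequence as the length Grin2b was above Gabbr1 at E18.5. Grik5 at 1049 and Grik3 at 438 per kb were among the first 5 at E13.5. Grm3 at 1182, Grin2b at 1057 and Grm5 at 977 per kb were among the first 5 at E18.5 and not at E13.5. With no spread between fetuses, whether neighbours in these orders differ cannot be said. Against measured protein-coding genes, Gabbr1 lay at the 95.5th percentile of levels at E13.5 and the 97.9th at E18.5.

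The classes differed in their share of the receptor mRNA. Over all glutamate receptor genes the share of the summed level was the same to 3 digits, 51.3% at E13.5 and 51.3% at E18.5, and GABA receptor genes held 42.7% and 41.5%. Within the glutamate receptors the kainate class went from 23.1% of all receptor mRNA at E13.5 to 10.6% at E18.5, while the mGlu class went from 7.33% to 16.0% and the NMDA class from 6.89% to 10.6%. The AMPA class held 12.4% and 12.7%, and the delta class 1.65% and 1.56%. The GABA-A class held 23.9% and 27.7%, the GABA-B class 18.7% and 13.7%, and the glycine class 5.99% and 7.21%. The direction for the kainate, mGlu, NMDA, GABA-A and glycine classes was the same with the other lengths, with no length and with the highest gene of each class left out. Without Gabbr1, the highest GABA-B gene, and the highest gene of each other class, the GABA-B share was that of Gabbr2 alone. It was 4.24% at E13.5 and 8.45% at E18.5, the opposite direction. The small AMPA and delta differences also turned under some of these settings. With counts not divided by length, the NMDA class held 15.5% and 23.8%, the largest class at E18.5. The summed level of the mGlu class was 6.30-fold that at E13.5 relative to the median gene, that of the NMDA class 4.44-fold, and that of the kainate class 1.32-fold.

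**Figure D2:**
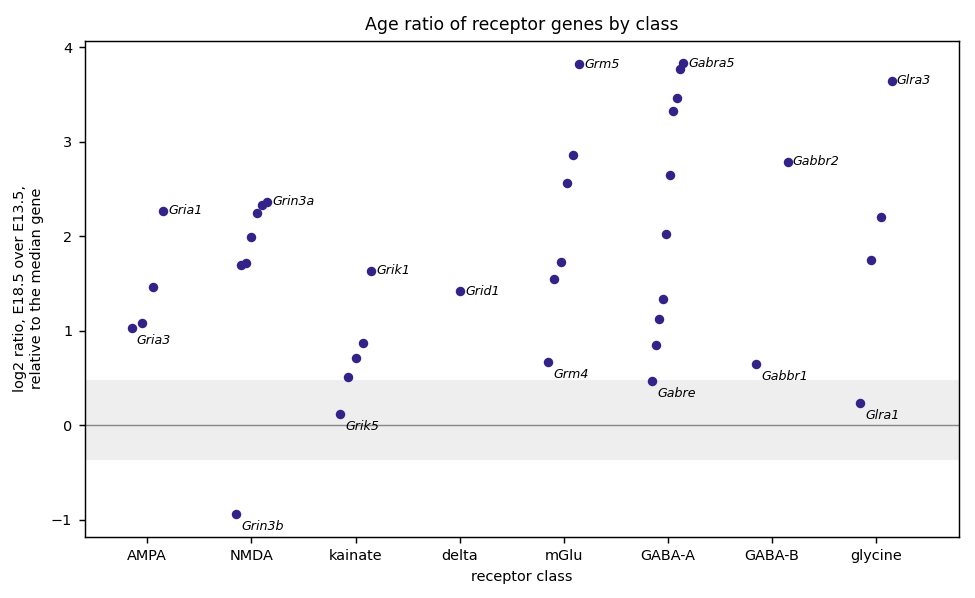
Age ratio (log2, E18.5 over E13.5, relative to the median gene) of 39 receptor genes measured at both ages, by class. Each point is 1 gene, the grey band spans the quartiles of all measured genes, and the lowest and highest gene drawn in each class are named. The 5 kainate genes sit between 0.12 and 1.64, and the NMDA class holds the single gene below 0, Grin3b at -0.94.

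AMPA receptors carry fast excitatory currents, and all 4 subunit genes had a ratio above 1. Gria2, whose edited subunit limits calcium entry, had a mean count of 5443 at E13.5 and 12325 at E18.5, or 350 and 793 per kb. Gria1, a subunit known for its role in synaptic plasticity, had a mean count of 1370.5 at E13.5 and 5437 at E18.5, or 227 and 899.7 per kb. Gria1 had the largest ratio of the class at 2.27, and Gria3 the smallest at 1.03. The level of Gria2 was 1.54 times that of Gria1 at E13.5 and 0.881 times at E18.5. Gria1 was thus the highest subunit at E18.5 per kb of exon, but with the longest transcript or the longest coding sequence as the length Gria2 was the highest at both ages. Gria4, a subunit abundant early in life, was at 286 and 495 per kb with a ratio of 1.08. Its share of the AMPA sum was 29.3% at E13.5 and 20.8% at E18.5. Gria3 was at 112 and 188 per kb.

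NMDA receptors require a GluN1 subunit, the product of Grin1, joined with GluN2 or GluN3 subunits. Grin1 had a mean count of 537 at E13.5 and 2223 at E18.5, a ratio of 2.33. Grin2b, the GluN2 subunit typical of fetal brain, had a mean count of 6744 at E13.5 and 26269 at E18.5, a ratio of 2.25. Its level of 271 per kb at E13.5 and 1057 per kb at E18.5 made it the highest NMDA receptor gene at both ages, with 70.8% and 77.9% of the GluN2 sum. Grin2a, the subunit that in rodents takes over after birth, was at 18.6 and 50.3 per kb with a ratio of 1.72. The level of Grin2b was 14.6 times that of Grin2a at E13.5 and 21.01 times at E18.5. Grin2d was at 89.8 and 238 per kb with a ratio of 1.69, and Grin2c, mainly a gene of cerebellar granule cells, was lowest of the GluN2 genes at 3.64 and 11.9 per kb. Grin3a, which encodes a GluN3 subunit that lowers calcium permeability, had the largest ratio of the class, 2.37, with 92.4 per kb at E13.5 and 391 per kb at E18.5. Grin3b had the smallest at -0.94, with mean counts of 41.1 and 17.6. By the counting mode, reads on the bases it shares with Tmem259 were counted for neither gene.

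Kainate receptors modulate transmitter release and excitability, and their summed level had the smallest ratio of the glutamate receptor classes, 0.41. Grik5, which encodes a kainate receptor subunit that needs a partner of the GluK1 to GluK3 group, had a mean count of 5423 at E13.5 and 4825 at E18.5. Its ratio of 0.12 was the smallest of the class, and per kb of exon it remained the highest kainate gene, at 1049 per kb and 934 per kb. With the longest coding sequence as the length Grik3 was slightly above Grik5 at E18.5. Without scaling to the median gene the Grik5 ratio was -0.17. Grik3 was at 438 per kb at E13.5 and 511 per kb at E18.5, a ratio of 0.51. Grik2, at 199.9 and 268 per kb, had a ratio of 0.71 and held 28.4% and 28.3% of the sum of Grik1, Grik2 and Grik3. Grik1 had the largest ratio of the class, 1.64, at 65.6 and 167 per kb, and its share of that sum was 9.32% at E13.5 and 17.7% at E18.5. Grik4 was at 65.8 and 98.5 per kb with a ratio of 0.87. The delta receptors organise synapses and open little or not at all to glutamate, and Grid1 of this class was at 106 and 233 per kb with a ratio of 1.42.

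The mGlu receptors fall into group I, coupled to phospholipase C, and groups II and III, which lower cyclic AMP. Group I had the largest ratio of any family, with a summed level 11.3-fold that at E13.5 relative to the median gene. Grm5 had a mean count of 864 at E13.5 and 10009 at E18.5, or 84.3 and 977 per kb. Its ratio of 3.82, a fold of 14.1, was the largest of all glutamate receptor genes, and its level went from the 35.5th to the 94.4th percentile of measured protein-coding genes. In group II, Grm3, which is found in astrocytes as well as neurons, had a mean count of 603 at E13.5 and 3603 at E18.5. Its ratio was 2.86 and its level 198 per kb and 1182 per kb, the highest mGlu gene at both ages per kb of exon. This order depends on the length. With the longest coding sequence as the length, or with no length, Grm5 was above Grm3 at both ages. With the longest coding sequence Grm4 was slightly above both at E13.5. With the longest transcript Grm5 was above Grm3 at E18.5. Grm2 was at 62.2 and 169.6 per kb with a ratio of 1.73. Group III, largely presynaptic receptors, had a different leading gene at each age. Grm4 was at 114 and 148 per kb with the smallest mGlu ratio, 0.66, and Grm7 at 57.9 and 282 per kb with a ratio of 2.57. Grm4 held 58.8% of the group III sum at E13.5 and Grm7 held 58.6% at E18.5. Grm8 was at 21.3 and 51.3 per kb with a ratio of 1.55. Grm6, the receptor of retinal ON bipolar cells, had mean counts of 2.40 and 0.780 and was not measured at either age.

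**Figure D3:**
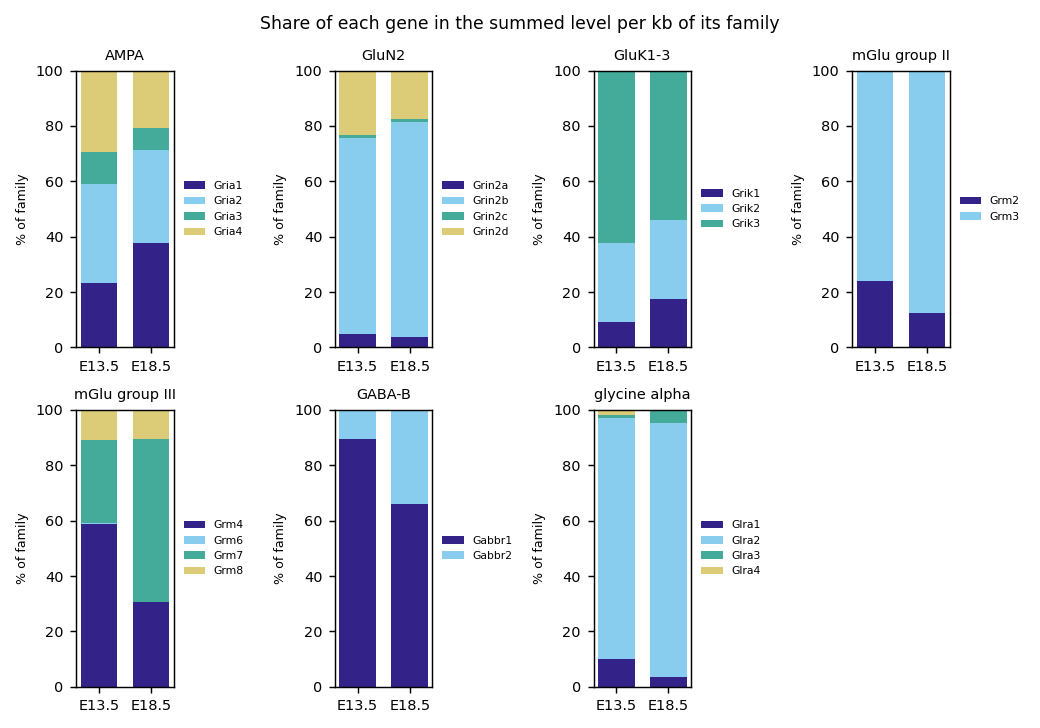
Share (%) of each gene in the summed level per kb of its subunit family, at E13.5 and E18.5, for 7 families. The bars are stacked to 100 and come from means over both genotypes, with no error. The leading gene differed between the ages in the AMPA family and in mGlu group III, and Gabbr2 took a larger share of the GABA-B sum at E18.5. With the longest transcript or the longest coding sequence as the length, Gria2 led the AMPA family at both ages.

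GABA-A alpha subunits set much of the pharmacology and placement of the channel, and their family sum was 5.13-fold that at E13.5 relative to the median gene. Gabra5, the subunit of extrasynaptic receptors abundant in hippocampus, had a mean count of 156 at E13.5 and 1829 at E18.5. Its ratio of 3.83, a fold of 14.2, was the largest of all 44 genes. The share of Gabra5 in the alpha sum was 11.8% at E13.5 and 32.7% at E18.5. Its exons overlap those of Gm9962 on the other strand. Gabra3, an alpha subunit of immature neurons, was at 238 and 796 per kb with a ratio of 2.02. It led the family at both ages, with 53.5% and 42.3% of the sum. Gabra2 was at 67.5 and 139.8 per kb with a ratio of 1.33, the smallest of the alpha genes. The level of Gabra2 was 1.28 times that of Gabra5 at E13.5 and 0.227 times at E18.5. Gabra4 was at 23.0 and 119 per kb with a ratio of 2.65. Gabra6, a subunit of mature cerebellar granule cells, was listed at 0 at E13.5 and had a mean count of 1.09 at E18.5.

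Among the GABA-A beta subunits, which contribute to the GABA binding site, Gabrb1 had the largest ratio, 3.33, with mean counts of 452 at E13.5 and 3736 at E18.5. Its level was 32.7 per kb and 270.0 per kb. Gabrb2 was at 291 and 519 per kb with a ratio of 1.12, so the level of Gabrb1 lay nearer to that of Gabrb2 at the later age. Which of them was higher at E18.5 depends on the length. The mean count of Gabrb2 was 1848 at E13.5 and 3304 at E18.5, so with no length Gabrb1 was the higher at E18.5. With the longest coding sequence as the length Gabrb1 was also above Gabrb2 at E18.5, and with the longest transcript it was below. Of the gamma subunits, Gabrg1 had mean counts of 106 and 957 and a ratio of 3.46. Gabrg3 had mean counts of 99.5 and 1116 and a ratio of 3.77. Both were low at E13.5, at 13.47 per kb for Gabrg1 and 8.34 per kb for Gabrg3, and reached 122 and 93.5 per kb at E18.5.

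The remaining GABA-A subunits were low. Gabrq was at 37.4 and 55.1 per kb with a ratio of 0.84, and Gabre at 13.53 and 15.4 per kb had the smallest GABA-A ratio, 0.47. Gabrd, the delta subunit of extrasynaptic receptors that appears mainly after birth, had a mean count of 2.06 at E13.5 and 36.1 at E18.5, and was measured only at E18.5. Gabrp, mainly a gene of tissues outside the brain, had mean counts of 4.79 and 1.38. The Gabrr genes encode GABA channel subunits best known from the retina. Gabrr1 had mean counts of 8.10 and 12.2, Gabrr2 of 8.93 and 6.06, and Gabrr3 of 7.89 and 0.948. Gabrr1 at E18.5 was the single one of them that reached the minimum.

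Most GABA-A genes lie in chromosomal clusters, and ratios differed within them (coordinates in GRCm38). On chromosome 7, Gabrg3 at 56716465 to 57387188 and Gabra5 at 57407672 to 57510059 lie 20.5 kb apart on the minus strand and had the ratios 3.77 and 3.83. On chromosome 5, Gabrg1, Gabra2, Gabra4 and Gabrb1 had ratios of 3.46, 1.33, 2.65 and 3.33. The 5′ ends of Gabra4 and Gabrb1 overlap head to head over 196 bases, from 71658113 to 71658308. By the counting mode, reads there were counted for neither gene. On the X chromosome, Gabre, Gabra3 and Gabrq had ratios of 0.47, 2.02 and 0.84.

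The GABA-B receptor works only as a pair, in which Gabbr1 binds GABA and Gabbr2 carries it to the membrane and couples to the G protein. Gabbr1 had a mean count of 10255 at E13.5 and 13150 at E18.5, a ratio of 0.64. Gabbr2 had a mean count of 1024 at E13.5 and 5804 at E18.5, a ratio of 2.79 and a fold of 6.90. The level of Gabbr1 was 8.62 times that of Gabbr2 at E13.5 and 1.95 times at E18.5. The levels of the partners were thus closer to each other at E18.5.

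Of the glycine receptor genes, Glra2, the alpha subunit of fetal life, led at both ages with 87.2% and 91.5% of the alpha sum. It had mean counts of 1035 and 2853, levels of 329 and 906 per kb, and a ratio of 1.75. Glra1, the adult alpha subunit of spinal cord and brain stem, had mean counts of 91.1 and 88.2. Its ratio of 0.24 was the smallest of the class, and without scaling to the median gene it was -0.05. The summed mean count of 4 spinal cord markers was 529 at E13.5 and 193 at E18.5, and their part in the Glra1 values was not tested. Most of that sum was Hoxb8, at 474 and 178, and 3 of the 4 markers were measured at E13.5 and 2 at E18.5. Glra3 had the largest ratio of the class, 3.65, with mean counts of 38.6 and 398. Glrb, the beta subunit that binds the scaffold gephyrin, was at 95.8 and 363 per kb with a ratio of 2.20. Glra2 was 3.43 times as high as Glrb at E13.5 and 2.498 times at E18.5. Glra4 had mean counts of 12.98 and 7.95 and was measured only at E13.5.

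Sequences upstream of the start are shown for the genes with the 2 largest age ratios and the smallest, among measured genes whose 250 bases before the RefSeq start (GRCm38.p6) overlap no annotated exon. They are shown because these genes lie at the ends of the range of age ratios among such genes. Capitals mark CG dinucleotides, and each sequence runs 5′ to 3′ on the strand of its gene. Gabra5 is at chr7:57510060-57510309 on the minus strand, Glra3 at chr8:55940168-55940417 on the plus strand and Grik3 at chr4:125490446-125490695 on the plus strand.
Gabra5: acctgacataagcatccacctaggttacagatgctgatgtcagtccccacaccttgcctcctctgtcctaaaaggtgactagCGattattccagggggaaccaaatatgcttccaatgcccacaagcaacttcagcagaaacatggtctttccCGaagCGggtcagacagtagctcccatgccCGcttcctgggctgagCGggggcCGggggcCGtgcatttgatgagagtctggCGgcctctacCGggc
Glra3: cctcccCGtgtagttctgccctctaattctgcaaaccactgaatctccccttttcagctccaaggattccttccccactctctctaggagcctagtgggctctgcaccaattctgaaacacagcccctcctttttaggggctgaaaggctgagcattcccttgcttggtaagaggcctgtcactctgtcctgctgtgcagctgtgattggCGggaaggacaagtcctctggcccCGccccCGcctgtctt
Grik3: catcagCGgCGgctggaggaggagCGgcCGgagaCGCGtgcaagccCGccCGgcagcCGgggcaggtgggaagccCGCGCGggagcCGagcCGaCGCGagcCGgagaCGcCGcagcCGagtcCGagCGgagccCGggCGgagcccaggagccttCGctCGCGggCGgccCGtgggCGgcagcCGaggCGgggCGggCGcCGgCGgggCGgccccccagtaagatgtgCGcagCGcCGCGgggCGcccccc
The Gabra5 stretch holds 9 CG dinucleotides and is 56.4% G and C, and the Glra3 stretch holds 4 and is 56.0% G and C. The Grik3 stretch holds 42 and is 82.0% G and C.

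RefSeq promoters, taken from 250 bases before to 50 after a start, matched 36 of the 52 genes with 43 starts. Their median number of CG dinucleotides was 11, against 7 over 32851 promoters of all genes. It was 12 over the 15 promoters of genes with an age ratio above 2 and 18 over the 21 promoters of measured genes with a smaller ratio, with ranges of 0 to 46 and 2 to 50. The letters AGGTCA, the half-site to which thyroid hormone receptors are known to bind, were searched on both strands. They were found in 3 of the 43 promoters, 6.98%, those of Grin2c, Grm8 and Gabrr3, and in 16.3% of all promoters. A match describes the letters only.

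Gene lists around the receptors had smaller median ratios than the 1.71 of the receptor genes, and all their genes were measured at both ages. Of 15 excitatory scaffold genes, which hold receptors at the postsynaptic density, 13 were above 0 and the median was 0.89. The smallest were Homer3 at -1.24 and Dlg1 at -0.17, and the largest Dlg2 at 2.94 and Dlgap1 at 2.73. Of 14 auxiliary subunits of glutamate receptors, 13 were above 0 with a median of 1.13. They ran from Cacng7 at -0.72 and Cacng4 at 0.06, both encoding AMPA receptor auxiliary proteins, to Cnih3 at 2.76 and Neto1 at 3.26, the latter an auxiliary protein of kainate receptors.

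Of 8 inhibitory scaffold genes, 7 were above 0 with a median of 0.67. Lhfpl4 at -0.07 and Nlgn2 at 0.03, which act together at inhibitory synapses, were the smallest, and Insyn2a at 1.29 and Slitrk3 at 1.34 the largest. Of 8 genes of GABA and glycine synthesis and transport, 7 were above 0 with a median of 1.01. Gad2, a GABA-synthesising enzyme, was the smallest at -0.02, then Abat, which degrades GABA, at 0.47. Gad1, the other GABA-synthesising enzyme, at 1.41 and Slc6a11, an astrocyte GABA transporter, at 3.63 were the largest. Of 7 glutamate transporter genes, 5 were above 0 with a median of 1.25. Slc17a8 at -0.38 and Slc1a2 at -0.06 were the smallest, and Slc1a1 at 2.61 and Slc17a7 at 2.70 the largest. Slc17a6 and Slc17a7 load glutamate into vesicles, and the level of the former was 24.2 times that of the latter at E13.5 and 5.48 times at E18.5. The chloride transporters of neurons also differed. Slc12a2, which brings chloride in, had a ratio of -0.07, and Slc12a5, which takes it out, a ratio of 1.66. The level of Slc12a2 was 0.960 times that of Slc12a5 at E13.5 and 0.289 times at E18.5.

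**Figure D4:**
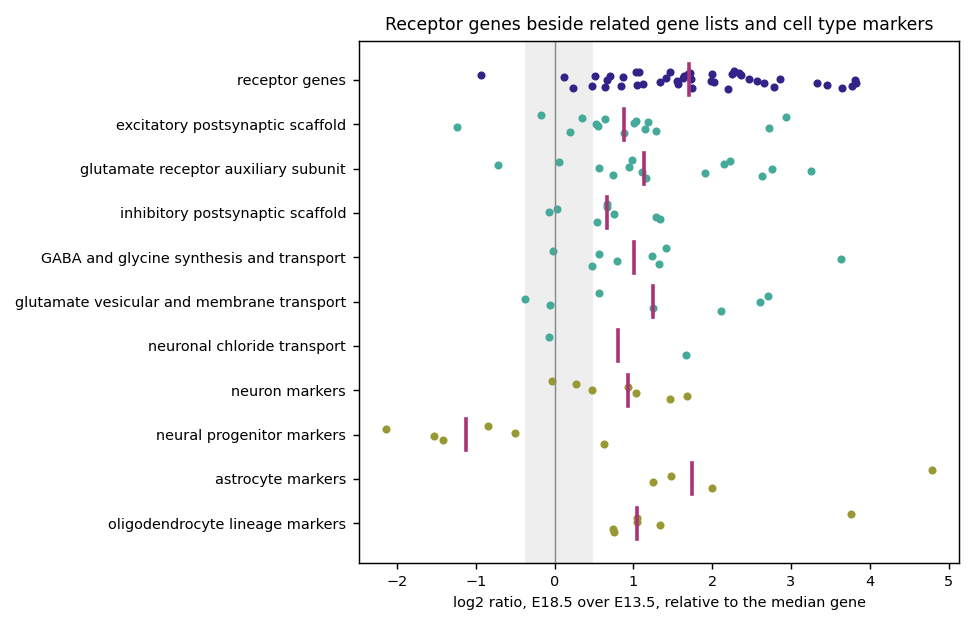
Age ratio (log2, E18.5 over E13.5, relative to the median gene) of the receptor genes, of lists of related genes and of cell type markers. Each point is 1 gene measured at both ages, bars are medians and the grey band spans the quartiles of all measured genes. The receptor median of 1.71 lay above that of each related list and of the neuron markers at 0.93, near that of the astrocyte markers at 1.74, and the neural progenitor median was -1.13.

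Markers of neurons and glia were measured at both ages, except Gfap at E13.5, and their levels also differed between the ages. The 7 neuron markers had a median ratio of 0.93, from Tubb3 at -0.04 to Snap25 at 1.68, and summed mean counts of 177879 and 197537. The 6 progenitor markers had a median of -1.13 and summed mean counts of 48515 and 19500. For the 5 astrocyte markers the summed mean counts were 4554 and 11536, and Gfap was at 4.71 at E13.5 and 501 at E18.5. Gfap is therefore not among the 4 astrocyte markers with an age ratio. The 6 oligodendrocyte lineage markers had a median of 1.05. The part of these cell types in the receptor ratios was not tested. Of other tissues, the 4 markers of meninges had a median of -0.59 and the 4 of red cells -0.89. The 4 microglia markers had a median of 0.37 and the 4 of endothelium 0.08. For skeletal muscle 3 of 4 markers were measured at E13.5 and 2 at E18.5, with summed mean counts of 195 and 138. The 2 measured at both ages went opposite ways, Myh3 with a ratio of -2.47 and Acta1 with a ratio of 1.45. For retina 2 and 1 of 4 were measured with sums of 309 and 49.8, and for liver 3 of 3 at both ages with sums of 274 and 95.9.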

How the data were processed

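Total RNA of 14 whole fetal brains was depleted of ribosomal RNA and sequenced in 2 batches from different centres. Per the labels and the study's methods, the authors trimmed reads with cutadapt 3.1, aligned them with STAR 2.5.3a to GRCm38/mm10 with GENCODE VM22, removed rRNA and tRNA with bedtools 2.26.0, counted with HTSeq without strand, adjusted for the batch with ComBat-seq and ran DESeq2 1.30.1 (R 4.0.3) within each age. The batch adjustment can shift a mean, and which library belongs to which batch was not used here.

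The deposited mean normalized count is a signal: the authors averaged counts divided by size factors over all libraries of an age. It has no SD and no n of its own. Its sum over genes was about 28582600 at E13.5 and 24565700 at E18.5. In each of the 2 tables the 5 other columns hold the authors' comparison of the genotypes (log2 fold change, its standard error, a Wald statistic, p-values) and were not used. With no value per fetus the planned edgeR test of the genotypes could not be run.

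Mean counts were divided by the exon union of the gene (GENCODE annotation of GRCm38, one release older; 41897 genes matched, 37 did not). The median log2 ratio taken off each age ratio was -0.28. Percentiles are among 14745 and 14860 measured protein-coding genes. A class ratio compares summed levels. Work was done in Python 3.11.15 with pandas 2.3.3 and numpy 2.4.6, and the scaling was tested on simulated data. Measured receptor genes are named by class, and of each related list the 2 smallest and the 2 largest ratios. A few receptor genes are not reported here. The genes and lists were chosen with earlier results of these data known. Alternatives were the minimum count, the scaling, the gene length and the members summed.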

Additional observations from a re-analysis of the deposited data

How the results depend on the processing

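No paired analysis was possible because the tables give means over all fetuses of an age and no value per sample. For the same reason leaving out a replicate, DESeq2 and every other alternative of the genotype comparison were not run. Sampling error cannot be given, and genes with mean counts near 10 rest on few reads.

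The median age ratio of the receptor genes, 1.71, was 1.60 with no minimum count, 1.64 and 1.60 with ages scaled to the sum of all genes or of protein-coding genes, and 1.42 with no scaling. These scalings lower every ratio by 0.07, 0.10 and 0.28. Without genes with overlapping exons, chosen after seeing the data, the median was 1.75 and 25 of 25 genes lay above the median gene, against 43 of 44, fewer by construction. The ratio of the summed glutamate receptors, 1.53, was 1.47, 1.43 and 1.25 under the scalings, and that of the GABA receptors, 1.49, was 1.42, 1.39 and 1.21. The sum of the Gabrr genes, at 0.09, was -0.0121 when scaled to protein-coding genes and -0.19 with no scaling, where Grik5 was -0.17 and Glra1 -0.0463.

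The glutamate share of receptor mRNA, 51.3% at each age, was 50.1% at E13.5 and 51.2% at E18.5 with the longest transcript as length and 48.1% and 47.8% with the longest coding sequence. With no length, chosen after seeing the data, it was 59.8% and 62.8%, and with the highest gene of each class left out 57.3% and 51.8%, the GABA share then being 38.7% and 43.9% against 42.7% and 41.5%. Among single classes, the GABA-B share was 4.24% and 8.45% with the highest gene left out, against 18.7% and 13.7%. Only Gabbr2 then remained in that class. The NMDA share was 15.5% and 23.8% with no length, against 6.89% and 10.6%. The AMPA share, 12.4% and 12.7%, was 14.7% and 13.9% with the coding length and 16.0% and 15.1% with no length. It was 17.3% and 14.4% with the highest gene of each age left out, Gria2 at E13.5 and Gria1 at E18.5. These last shares thus cover different subunits. The delta share, 1.65% and 1.56%, was 1.84% and 1.85% with the longest transcript. The mGlu share, 7.33% and 16.0%, was 4.51% and 9.73% with the coding length, and the glycine share, 5.99% and 7.21%, was 2.67% and 3.34% with no length. The leading gene differed in 1 of 14 families, AMPA at E18.5, under either other length.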
